A study of Mus musculus with 27 samples.

Results

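Compact ventricular cardiomyocytes of the mouse heart at E11.5 were chosen from a single-cell RNA-seq table by gates on measured genes. A cell was kept with under 10% of its unique molecular identifiers (UMIs, counted RNA molecules) in haemoglobin genes. The sarcomere genes Tnnt2, Actc1, Myl7, Myl4 and Tnnc1 together had to make up 1% of its UMIs or more. Myl2, the ventricular myosin light chain, had to reach 10 UMIs per 10000, and Nppa, the atrial natriuretic peptide of trabecular and atrial muscle, had to stay under 10 per 10000. Cells with 3 or more UMIs of the outflow genes Isl1, Rspo3, Sema3c and Bmp4 together, or of the endothelial genes Pecam1, Cdh5 and Egfl7 together, were left out. The gates kept 853 of 6032 barcodes.

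The series concerns the long non-coding RNA Hand2as, a neighbour of Hand2, and its deletion in C57BL/6 mice. The single-cell libraries were 1 from Hand2as+/+ hearts and 1 from Hand2asF/F hearts, where F is the allele that deletes the full-length gene. Each library pooled living cells, sorted with a viability dye, from 6 E11.5 hearts of heterozygote matings, so each genotype has 1 sample and no test was possible between them. About 5000 barcoded cells were aimed at per library, per the labels, and the table holds 2563 and 3469. Bulk RNA-seq gave replicated values: 3 F/+ and 3 F/F whole hearts at E11.5, 3 ventricle samples of each of these genotypes at E16.5, and cardiomyocytes from 5 +/+ samples at 8 weeks.

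The ventricular wall of the midgestation heart has an outer compact layer that proliferates and thickens and an inner trabecular layer of more differentiated muscle. Hey2, a transcriptional repressor, and Mycn, a growth regulator, are known for their place in the compact layer, whereas Nppa, Nppb, Bmp10 and the connexin Gja5 mark trabeculae. Hand2 and Hand1 are related basic helix-loop-helix factors known for their roles in right and left ventricular growth.

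Promoters of 4 genes on which the comparisons turn are shown, each as the 250 bases before the first start listed by RefSeq (build GRCm38.p6). Myl2 (chr5:122092474-122092723, plus strand) is the gate gene. Hey2 (chr10:30842784-30843033, minus strand) was higher in compact than in Nppa-high cells and Nppb (chr4:147985650-147985899, plus strand) lower. Hand2 (chr8:57320733-57320982, plus strand) differed between the libraries. Capitals mark, on either strand, the GATA-type motif AGATAA, held by 9.99% of 32851 promoter windows of this length, and the E-box CATCTG, held by 14.4%; no marked motifs overlap. A search on both strands for TNAAGTG (10.1% of windows), CACGTG (6.02%) and a Mef2-type motif (3.2%) found no match in the 4 windows.
Myl2: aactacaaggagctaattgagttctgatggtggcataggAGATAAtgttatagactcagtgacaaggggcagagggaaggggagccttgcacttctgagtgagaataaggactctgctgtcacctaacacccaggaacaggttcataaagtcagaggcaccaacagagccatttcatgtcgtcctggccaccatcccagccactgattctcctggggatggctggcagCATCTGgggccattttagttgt
Hey2: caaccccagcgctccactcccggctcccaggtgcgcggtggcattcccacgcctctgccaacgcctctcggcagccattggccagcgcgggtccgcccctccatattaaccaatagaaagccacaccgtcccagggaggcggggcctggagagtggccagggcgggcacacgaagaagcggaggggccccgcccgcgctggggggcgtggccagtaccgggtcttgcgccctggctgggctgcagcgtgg
Nppb: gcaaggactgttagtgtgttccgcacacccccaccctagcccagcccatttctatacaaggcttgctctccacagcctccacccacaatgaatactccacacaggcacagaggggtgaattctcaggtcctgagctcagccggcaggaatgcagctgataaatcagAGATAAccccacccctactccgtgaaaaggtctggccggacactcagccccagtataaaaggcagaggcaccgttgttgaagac
Hand2: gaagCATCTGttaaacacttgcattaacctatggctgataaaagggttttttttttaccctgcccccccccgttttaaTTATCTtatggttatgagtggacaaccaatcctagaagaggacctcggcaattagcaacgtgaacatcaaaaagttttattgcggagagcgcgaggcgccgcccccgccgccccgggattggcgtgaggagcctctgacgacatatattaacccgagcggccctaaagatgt
The windows of Myl2 and Hand2 hold both marked motifs, that of Nppb holds AGATAA alone, and that of Hey2 holds neither. These matches describe letters only.

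Compact cells made up 320 of 2563 barcodes in the +/+ library, a share of 12.5% (exact binomial 95% interval 11.2 to 13.8%), and 533 of 3469 in the F/F library, a share of 15.4% (14.2 to 16.6%). Of the barcodes under the haemoglobin gate alone they made up 20.4% and 24.5%. These intervals, and all others given for cells and UMIs, are at 95% and cover counting error only. Throughout, paired values are given in the order +/+ and F/F. The median compact cell held 15381 and 14159 UMIs, and the class summed to 5025077 and 7709397 UMIs. No compact barcode was shared by the libraries, although 18 barcodes were shared over all cells.

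The Myl2 gate fell in a gap and the Nppa gate did not. The lowest compact cells held 20.8 and 16 Myl2 UMIs per 10000, while the highest cells under the gate held 8.66 and 6.46. For Nppa, 9 and 13 compact cells lay between 8 and 10 per 10000, and 5 and 7 cells lay between 10 and 12, just past the gate. No Nppa UMI was seen in 62.5% and 64.4% of compact cells. Of 438 and 729 cells that passed the haemoglobin, sarcomere, Myl2 and Nppa gates, the outflow gate removed 117 and 193. Cells that passed every gate but Nppa, called Nppa-high here, numbered 66 and 96. Cells that failed only through low Myl2, called Myl2-low whatever their Nppa, numbered 19 and 40, and both classes together are called other myocardium.

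**Figure D1:**
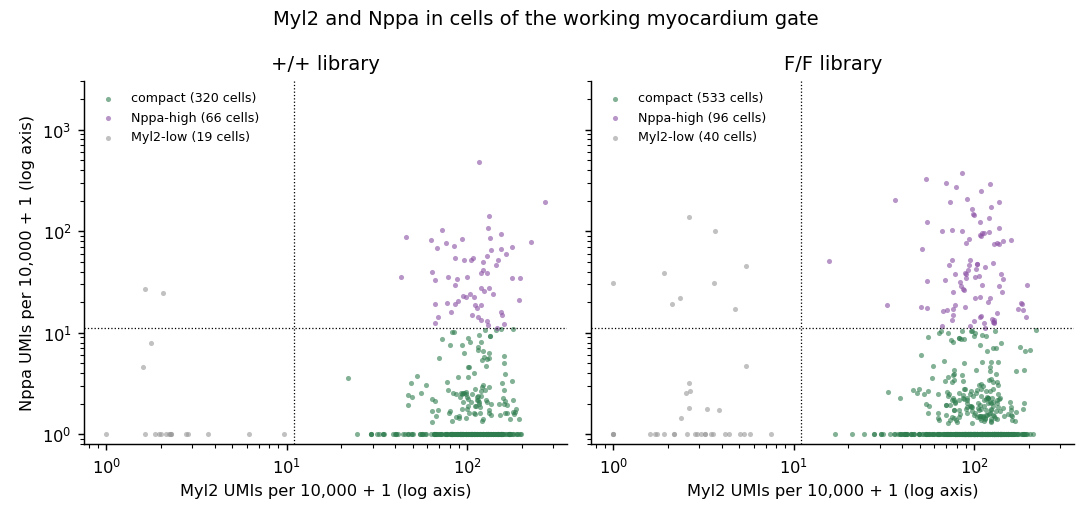
Myl2 (x axis) and Nppa (y axis), in UMIs per 10000 plus 1 on log axes, in each cell of both libraries that passed the haemoglobin, sarcomere, outflow and endothelial gates. Dotted lines are the gates. Compact cells (320 in the +/+ and 533 in the F/F library) sit below the Nppa line and run up to it without a gap.

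The label was checked against 6 markers given for these cells, in counts per 1000000 UMIs of the class (CPM). The markers Myl2, Myl3, Csrp3, Tcap and Myoz2 differed by less than 1.5-fold between compact and Nppa-high cells in either library. Myl3, the ventricular essential light chain, stood at 5526 and 5643 CPM in compact and 5835 and 5355 in Nppa-high cells. Csrp3, a Z-disc protein, stood at 1558 and 1704 CPM against 1710 and 1606. Tcap, the titin cap, had 246 and 281 CPM against 208 and 236, and Myoz2, a calcineurin-binding Z-disc protein, 101 and 118 against 114 and 81.1. Myl2, which set the gate, had 10916 and 10737 CPM against 11484 and 10255. Kcne1, a potassium channel subunit, was the marker that differed. It stood at 70.4 (63.3 to 78.2) and 64.6 (59 to 70.5) CPM in compact cells and at 31.7 (22.5 to 43.6) and 27 (19.6 to 36.4) in Nppa-high cells, and the intervals of the classes did not overlap in either library.

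Several genes known from the compact wall went the same way as Kcne1. Hey2 stood at 84.4 and 74.2 CPM in compact cells and 49.3 and 47.2 in Nppa-high cells. Mycn had 63.5 and 54.2 CPM against 31.7 and 25.2. The cyclin Ccnd2 had 770.3 and 609.8 CPM against 443 and 295, and the glucose transporter Slc2a1 452 and 416 against 287 and 234. Tnnt1, the slow skeletal troponin T, had 250.3 and 228 CPM against 141 and 93.7. A list of 12 compact-wall regulators was less uniform: of 10 with enough UMIs, 5 were higher in compact cells by any fold in both libraries and 3 were lower, where 36.4% and 30.0% of all genes were so. Its median log2 ratio was 0.17 and 0.084. Irx4, a ventricular homeobox factor, was at 62.3 and 63.6 CPM against 57.6 and 45.9.

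Trabecular genes were lower in compact cells. All 9 members tested of a trabecular list, Nppa left out, were lower in both libraries, with median log2 ratios of -0.98 and -0.79 against 0.034 and 0.0098 over 5748 genes. Nppb, the B-type natriuretic peptide, stood at 145 and 141 CPM in compact cells and 1268 and 919 in Nppa-high cells. Bmp10, a trabecular growth factor, had 17.5 and 11.2 CPM against 81.8 and 60.4. Gja5, a connexin of fast conduction, had 28.3 and 21.7 against 85.2 and 111, and Cited1, a transcriptional coregulator, 484 and 309 against 1537 and 1488. Smpx, a small muscle protein, differed less, at 797 and 849.7 against 1182 and 1209. Since Nppa chose the classes, genes that follow Nppa from cell to cell had to differ here.

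**Figure D2:**
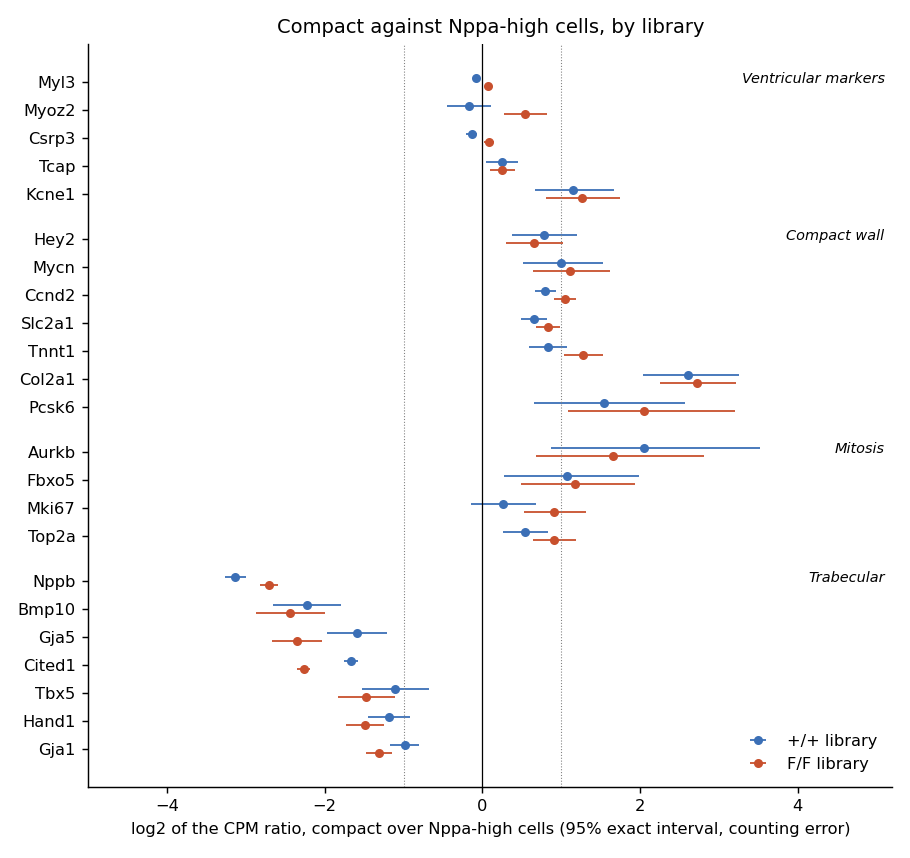
The log2 CPM ratio of compact over Nppa-high cells (x axis) for genes of 4 kinds (rows), with exact 95% counting intervals, in the +/+ and F/F libraries. Dotted lines mark a fold of 2. Myl3, Csrp3 and Tcap lie near 0, Kcne1, Hey2 and Mycn to the right of 0 and Nppb, Bmp10 and Gja5 to the left of -1 in both libraries.

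Division genes were higher in compact than in Nppa-high cells. All 20 members of a G2 and mitosis list were higher in both libraries, with median log2 ratios of 0.40 and 0.67. Of 18 S-phase genes 16 were, with medians of 0.39 and 0.48, where 36.4% of all genes were so. Aurkb, a mitotic kinase, had 20.7 and 17.8 CPM in compact cells against 5.01 and 5.66. Rrm2, a subunit of the enzyme that makes deoxynucleotides, had 132 and 153 CPM against 77.7 and 84.3. With every cell thinned to 5000 UMIs, 16.7% and 14.4% of 311 and 507 compact cells held 10 or more S-phase UMIs, against 6.25% and 6.45% of 64 and 93 Nppa-high cells. For the G2 and mitosis list the shares were 36.3% and 42.2% against 29.7% and 35.5%. Against the other cells under the haemoglobin gate, 16 of 20 S-phase genes were lower in compact cells in both libraries, with medians of -0.38 and -0.33, where 55.9% of 10105 genes were lower and 31.9% higher. Of the G2 and mitosis list 9 were higher and 10 lower there, with medians of -0.13 and -0.046.

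Metabolic and contractile lists differed less. They are read against all genes, of which 36.4% were higher and 30.0% lower in compact than in Nppa-high cells in both libraries. Of 17 glycolytic genes, 12 were higher in compact than in Nppa-high cells in both libraries and 2 lower, with median log2 ratios of 0.21 and 0.21. Ldha, lactate dehydrogenase A, had 1983 and 2010 CPM against 1719 and 1525. Of 21 genes of oxidative metabolism, 17 were lower in compact cells and 3 higher, with medians of -0.16 and -0.16. Fabp3, the heart fatty acid carrier, had 355 and 383 CPM against 471 and 473, and Mb, myoglobin, 73.4 and 49.5 against 110.2 and 134. Of 6 thick-filament genes 5 were lower in both libraries, with medians of -0.21 and -0.28. Of 17 Z-disc genes 9 were lower and 4 higher. Fhl2, a Z-disc adaptor, was the one at least 2-fold higher in both libraries, with 153 and 169.5 CPM against 74.3 and 66.7.

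Over other myocardium, 11 of 5881 genes (0.187%) were at least 2-fold higher in compact cells in both libraries and 32 (0.544%) at least 2-fold lower. Against Nppa-high cells alone the shares were 0.365% and 0.539% of 5748 genes. Col2a1, a fibrillar collagen better known from cartilage, had the highest ratio, at 127 and 161 CPM in compact cells and 30.2 and 34.4 in other myocardium, ratios of 4.22 (3.08 to 5.91) and 4.68 (3.69 to 6.02). Pcsk6, a proprotein convertase, had 26.7 and 23.3 CPM against 8.63 and 4.3. Tagln3, Rcor2, 1110002E22Rik, G0s2, Ppp1r17, Fbxo5, Sept6, Syt11 and Meis2 had ratios between 1.94 and 3.03. Among them Fbxo5, an inhibitor of the mitotic ubiquitin ligase, had 24.7 and 26.9 CPM against 12.2 and 11, and Meis2, a homeobox cofactor, 104 and 96.4 against 54 and 46.9. At the other end, Nppb, Tmem163, Ptn, Gtsf1, Bmp10, Slit2, Ntn1, Itga6, Gja5 and Gm15543 had ratios between 0.132 and 0.327. Slit2, a secreted guidance cue, had 26.5 and 18 CPM against 106 and 90.9, and Ntn1, another, 22.7 and 13.4 against 87 and 49.3. Ptn, a secreted growth factor, had 17.1 and 14.8 CPM in compact, 29.2 and 27 in Nppa-high and 504 and 216 in Myl2-low cells, with the highest level in the Myl2-low cells.

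Against all other cells, 1377 of 10447 genes (13.2%) were at least 2-fold higher in compact cells and 955 (9.14%) lower. That split turned with the denominator: it was 654 higher and 1300 lower without haemoglobin and mitochondrial genes, and 729 and 1240 with the median ratio set to 1. Red cells, whose median cell held 61.8% and 59.7% haemoglobin UMIs, take part in it. Against the other cells under the haemoglobin gate, 405 of 10105 genes (4.01%) were higher and 1284 (12.7%) lower. Of 17 Z-disc genes 15 were at least 2-fold higher there, as were 13 of 16 ion channel and calcium genes and all 6 thick-filament genes. Kcne1 stood at 16 and 19 CPM in those cells, Hey2 at 24.4 and 24.5, and Irx4 at 6.36 and 7.41. Trabecular genes were also higher in compact cells than there, 6 of 10 by at least 2-fold.

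Endothelial, mesenchymal, epicardial and immune markers were lower in compact cells than in the other cells under the haemoglobin gate, and haemoglobin and liver markers were not lower in every library. An endothelial list of 10 genes, 3 of them in the gate, summed to 22.5 and 28.8 CPM against 454 and 428 in those cells. A mesenchymal list of 8 genes summed to 48.2 and 43.5 CPM against 1206 and 981, an epicardial list of 7 genes to 50.1 and 50.7 against 442 and 540.1, and an immune list of 7 genes to 15.5 and 19.3 against 209 and 237. An erythroid list of 11 genes, mostly haemoglobins, summed to 13340 and 15335 CPM against 13956 and 14957, and a hepatocyte list of 5 genes to 12.7 and 8.17 against 352 and 4.86. An atrial list of 12 genes, which includes the gate genes Myl7 and Myl4, summed to 13506 and 15997 CPM against 6034 and 7358. Of its 6 members with enough UMIs 2 were higher and 2 lower in compact cells in both libraries. Its transcription factors Nr2f1 and Nr2f2 were chosen after their values were seen. Nr2f1 stood at 2.39 and 3.63 CPM in compact cells against 166 and 166 in Myl2-low cells, and Nr2f2 at 1.19 and 1.43 against 203 and 102.

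Features of the libraries stand beside every value that compares them. Of the F/F compact cells 0 of 533 held a UMI of the 4 Y-linked genes counted, which allows a share of up to 0.563%, while 106 of 320 +/+ cells did. Xist, the RNA of X inactivation, was at 254 CPM in the +/+ and 471 in the F/F library, so the sex of the pooled embryos and the genotype cannot be told apart in the whole class. Muscle RNA in red cells, which should make none, was higher in the F/F library: Myl2 stood there at 125 and 246 CPM. The row Gm28063, which RefSeq lists as a synonym of the deleted gene, held 0 and 1 UMIs in compact cells, which does not check the genotype.

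Hand2 was higher in the F/F library. It stood at 51.5 (45.5 to 58.2) CPM in +/+ compact cells and 91.4 (84.8 to 98.5) CPM in F/F compact cells, a ratio of 1.77 (1.54 to 2.05). By that ratio it ranked 10 from the top of 7819 genes, whose median ratio was 0.955. After thinning, a Hand2 UMI was seen in 21.5% (17.1 to 26.5%) of +/+ and 35.5% (31.3 to 39.8%) of F/F compact cells, and before thinning in 46.9% and 61.4%. In red cells, as a measure of free RNA, the thinned shares were 1.64% (0.922 to 2.7%) and 3.26% (2.34 to 4.42%) at median depths of 11210 and 11795 UMIs. Among cells with an Xist UMI and no Y-linked UMI (184 and 504 cells), Hand2 stood at 46.9 (39.5 to 55.3) and 91.9 (85.1 to 99) CPM, so the difference was as large there.

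Other classes showed the same direction. Hand2 stood at 30.9 and 49 CPM in Nppa-high cells, at 78.2 and 107 in cells that failed the outflow gate alone, at 86.4 and 130.3 in other cells under the haemoglobin gate and at 3.9 and 8.45 in red cells. The ratio was 1.59 in Nppa-high cells, 1.36 in the cells the outflow gate removed and 1.51 in the other cells. In red cells, the measure of free RNA, the ratio was larger than in compact cells, and Hand2 ranked 14 from the top of 6508 genes. Whether the ratios differ between classes was not tested.

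Genes near Hand2 on its chromosome had smaller differences. Hmgb2, a chromatin protein of dividing cells, stood at 771 and 1043 CPM in compact cells, a ratio of 1.35, and Sap30, a corepressor subunit, at 70.6 and 96.5, a ratio of 1.37. Galnt7, Cep44 and Fbxo8 had ratios of 0.883, 0.955 and 0.70. Hand1, on another chromosome, was at 64.9 and 49 CPM, a ratio of 0.756 (0.65 to 0.879), and so lower where Hand2 was higher.

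**Figure D3:**
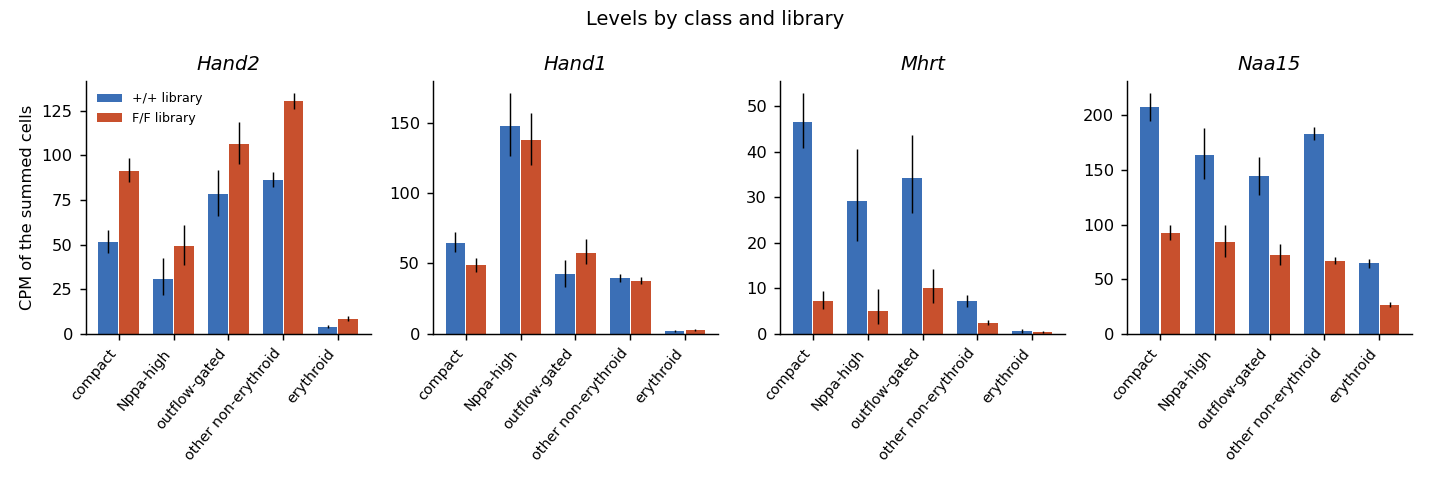
CPM (y axis) of Hand2, Hand1, Mhrt and Naa15 in 5 classes of cells (x axis) of the +/+ and F/F libraries. Bars are the summed cells of 1 library and whiskers are 95% Poisson intervals. Hand2 was higher and Naa15 lower in the F/F library in all 5 classes shown, red cells included, and Hand1 was higher in Nppa-high than in compact cells.

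Past 1.5-fold, 46 of 7819 genes (0.588%) were higher and 196 (2.51%) lower in F/F compact cells. With the median ratio set to 1 the split was 62 and 116. The 12 named genes with the highest ratios (1.72 to 2.01) were Pf4, Gm26917, Mis18a, Eme1, Serpinb6b, 2610044O15Rik8, Zfp30, Hand2, 1010001N08Rik, Gm9844, Rpgrip1 and Hist3h2ba. Hand2 and Gm26917 rested on 259 and 402 UMIs in the +/+ library, and the other 10 on 26 to 90. A gene named for its ratio needed 20 UMIs in each library. Xist, at 254 and 471 CPM, was left out of the named genes although its ratio was above that of Hand2. Pf4, a platelet chemokine, stood at 10.3 and 20.8 CPM in compact cells and at 10.7 and 26.1 in red cells. Mis18a, needed to load centromeric histone, stood at 14.5 and 28.3 CPM in compact cells and at 16.7 and 15.1 in Nppa-high cells.

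The 12 named genes with the lowest ratios (0.156 to 0.456) were Mhrt, Pbld2, B230312C02Rik, Gm29666, Snhg9, Xaf1, Senp5, Nmt1, Gm26518, Naa15, Gga3 and Gfod2. Mhrt, a non-coding RNA that overlaps the heart myosin genes on the opposite strand, stood at 46.6 and 7.26 CPM (234 and 56 UMIs). Whether the counting used strand is not given in the sources used here, so its reads and those of its partners may not be separable. Myh7, the fetal myosin heavy chain, stood at 2953 and 2420 CPM and Myh6, the alpha chain, at 768 and 726. Naa15, a subunit of the N-terminal acetyltransferase, stood at 208 and 92.5 CPM in compact cells and 64.4 and 26.6 in red cells. Nmt1, an N-myristoyltransferase, had 181 and 67.8 CPM in compact cells and 88 and 30.1 in red cells. Snhg9, a small nucleolar RNA host gene, had 96.3 and 26.2 CPM in compact cells and 244 and 55.7 in red cells. These 3 genes were thus lower in the F/F library in red cells as well. Gga3, a Golgi adaptor, had 16.7 and 7.52 CPM in compact cells and 2.42 and 2.42 in red cells.

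Members of the gene lists are read against the 0.588% of all genes that were higher and the 2.51% that were lower by 1.5-fold between libraries. No compact marker of 6, no thin-filament gene of 14, no Z-disc gene of 17 and no G2 and mitosis gene of 20 passed that fold, which is near the share of all genes and shows nothing particular to these lists. Lower in the F/F library were Hopx, a cardiac cofactor, at 69.3 and 44 CPM, the trabecular genes Cited1 at 484 and 309 and Bmp10 at 17.5 and 11.2, and Cox8b, a respiratory chain subunit, at 17.9 and 8.69. Hk2, a hexokinase, had 134 and 75.8 CPM, and Ccne2, an S-phase cyclin, 40.2 and 23.5. Hk2 was lower in red cells too, with a ratio of 0.351, whereas Cited1 had a ratio of 0.909 there. Tbx2, a repressor of chamber muscle, was higher, at 7.16 and 11 CPM.

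Compact cells differed among themselves along Hand1. After thinning to 5000 UMIs, a Hand1 UMI was seen in 58 of 311 +/+ and 73 of 507 F/F compact cells. Hand1 and Hand2 UMIs met in 8 and 17 cells, Hand1 came alone in 50 and 56, Hand2 alone in 59 and 163, and neither in 194 and 271. Cells with Hand1 held 938 and 888 CPM of Cited1, against 345 and 205 in cells without it. Gja5 was at 62.1 and 63 CPM with Hand1 and 25.3 and 16.1 without. Kcne1 went the opposite way, with 31 and 35.6 CPM with Hand1 against 96.4 and 74.7 without, as did Tnnt1, with 159 and 93.2 against 293 and 260.4, and Col2a1, with 82.8 and 63 against 153 and 201. For these 5 genes the intervals of both kinds of cell did not overlap in either library. These intervals leave out the spread from cell to cell, which is given below and was wide for Cited1 and Tnnt1. Hey2, at 62.1 and 57.5 CPM against 98 and 75.6, had overlapping intervals. Nppb, another trabecular gene, was not higher with Hand1, at 86.2 and 115 CPM against 153 and 146. A missing Hand1 UMI at this depth does not show that a cell lacks the RNA, and the genes shown were chosen with their values known.

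Hand2 was higher in the F/F library on both sides of that split. In cells without Hand1 it stood at 56.1 (43.8 to 70.8) CPM in +/+ and 94 (81.6 to 108) in F/F. In cells with Hand1 it stood at 27.6 (11.9 to 54.4) and 49.3 (29.2 to 77.9), where the intervals overlapped.

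**Figure D4:**
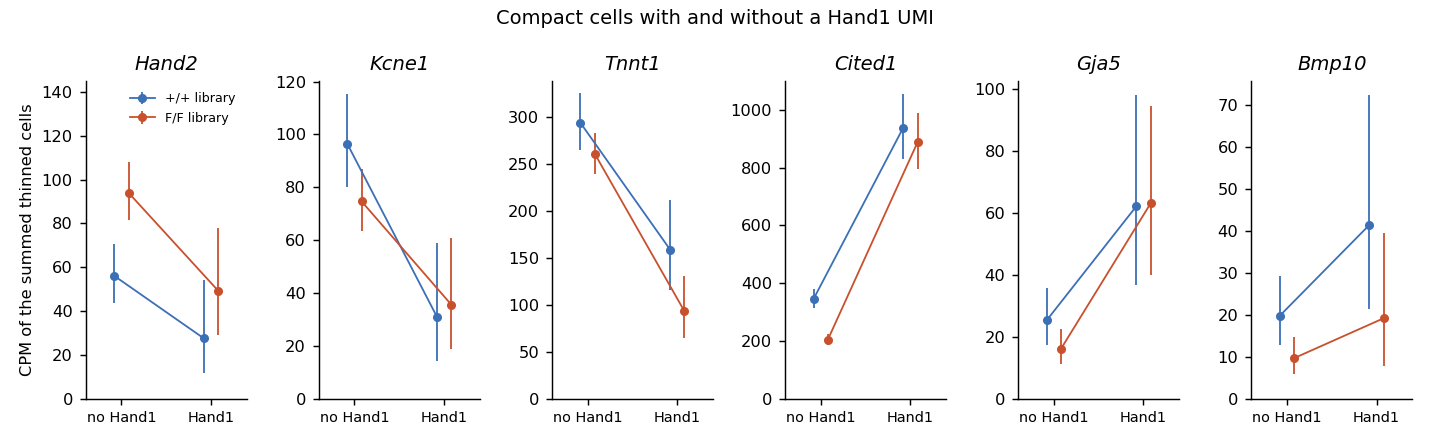
CPM (y axes, from 0) of 6 genes in compact cells without and with a Hand1 UMI (x axis), each cell thinned to 5000 UMIs, in the +/+ and F/F libraries. Points are summed cells (253 and 434 without, 58 and 73 with) and bars 95% Poisson intervals. Hand2, Kcne1 and Tnnt1 are lower and Cited1, Gja5 and Bmp10 higher with Hand1 in both libraries, and intervals overlap for Hand2 in the +/+ library and for Bmp10 in both.

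The spread from cell to cell within the class was measured by the variance over the mean of thinned UMIs, whose median over 4599 genes was 1.05 in +/+ and 1.04 in F/F. The genes named here were chosen after their values were seen. Malat1, a nuclear non-coding RNA, reached 16.4 and 19.5. Ankrd1, a stretch-responsive muscle protein, reached 10.8 and 9.56, and Mest, an imprinted gene, 6.69 and 7.21. Nppb reached 7.25 and 7.59, Cited1 6.24 and 6.74 and Tnnt1 6.18 and 5.18, so these genes stayed uneven inside a class bounded by Nppa.

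Bulk RNA-seq of E11.5 hearts, in fragments per kilobase per 1000000 mapped (FPKM), gave replicated values of the compact genes. Whole hearts hold many cell types, and fewer cells of a type and less RNA per cell cannot be told apart in them. Between F/F and F/+ hearts 1 of 11491 genes passed with limma (0.00870%), and 502 had an unadjusted p under 0.05. The gene that passed, Mir6236, was listed at 0 in all F/+ hearts and between 10852 and 27597 FPKM in F/F hearts. At E16.5 it went the opposite way, and whether the preparation of the libraries rather than genotype set it apart was not tested. Myl2 was at 2912, 2939 and 3166 FPKM in F/+ hearts and 4213, 3893 and 3901 in F/F hearts. Its groups did not overlap, and the log2 fold change was 0.41 ± 0.15 (SE, n = 3 per group) with a limma adjusted p of 0.999. Kcne1 was at 6.28, 8.17 and 5.13 FPKM against 10.8, 8.18 and 8.45, a log2 fold change of 0.44 ± 0.25, and its groups were separated by the narrowest margin. Hey2, at 31.8, 29.2 and 26.4 against 38.9, 35.5 and 41.1, had 0.39 ± 0.17. Myl3 had 0.36 ± 0.16 and Mycn -0.31 ± 0.17, also without overlap. All of these had a limma adjusted p of 0.999, so none of the differences passed. How many of all tested genes had groups without overlap was not counted, so lack of overlap does not set these genes apart. All 6 markers had a positive fold change, with a median of 0.34 against 0.015 over all genes. That direction was not particular to the markers. Positive too were 16 of 17 glycolytic, 15 of 18 Z-disc, 8 of 11 trabecular and 9 of 10 endothelial genes. Their medians were 0.18, 0.22, 0.17 and 0.22. Of the G2 and mitosis list 4 of 19 were positive, at a median of -0.070. Among other cell types, 5 of 5 hepatocyte genes were positive at a median of 1.26, and 8 mesenchymal genes had a median of -0.30. The part of other cell types in the marker values was not tested.

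In bulk Hand2 did not pass the test between the E11.5 genotypes. It was at 58.6, 77.5 and 86.7 FPKM in F/+ hearts and at 75.9, 79.1 and 69.2 in F/F hearts, whose values lay inside the F/+ range. The log2 fold change was 0.026 ± 0.18 (limma adjusted p = 0.999). The bulk controls carry 1 F allele whereas the single-cell controls carry none, so these comparisons differ in genotype as well as in cells. Nmt1 was at 56.1 ± 7.46 FPKM in F/F and 56 ± 6.77 in F/+ hearts (SD, n = 3 each), without the difference seen between the single-cell libraries. Of the 24 genes named above for high or low single-cell ratios 13 were among the genes tested at E11.5, and none passed (lowest limma adjusted p = 0.999).

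In E16.5 ventricles 1 of 10699 genes passed between F/F and F/+ with limma (0.00935%), again Mir6236, here listed at 0 in all F/F samples and between 17.6 and 48.8 FPKM in F/+ samples. An unadjusted p under 0.05 was reached by 281 genes. Hand2 was at 52.9, 49.4 and 46 FPKM in F/+ and 44.4, 44.2 and 40.3 in F/F ventricles, without overlap, a log2 fold change of -0.20 ± 0.087 with a limma adjusted p of 1.0. Kcne1 was at 26.8, 25.2 and 26.5 FPKM in F/+ and 21.1, 26.2 and 27.3 in F/F ventricles, and the groups overlapped. The median log2 fold change over the 6 markers was -0.0055.

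Between F/+ E11.5 whole hearts and F/+ E16.5 ventricles, stage and dissection change together and cannot be told apart. Of 11405 genes 5552 (48.7%) passed with limma, 2016 (17.7%) higher and 3536 (31.0%) lower at E16.5, with a median log2 fold change of -0.18. Upper-quartile scaling moved that median to 0.041 and the split to 3004 and 2583. Of the 6 markers 4 rose, 1 fell and 1 did not pass, with either scaling. Kcne1 rose from 6.53 ± 1.53 to 26.2 ± 0.856 FPKM (SD, n = 3 each), a log2 fold change of 1.87 ± 0.18 (SE). Hey2 rose from 29.2 ± 2.71 to 109.9 ± 11.9 FPKM, by 1.88 ± 0.13. Myoz2, Myl3 and Tcap rose by 1.86 ± 0.18, 1.61 ± 0.14 and 1.57 ± 0.15. Csrp3 was at 444 ± 62.3 and 460.3 ± 30.0 FPKM. Myl2, the gate gene, went against the other markers: it fell from 3006 ± 139 to 482 ± 261 FPKM, a log2 fold change of -2.76 ± 0.30, with the E16.5 libraries at 783, 326 and 337.

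Mycn was at 26 ± 2.15 FPKM at E11.5 and 18.1 ± 1.5 at E16.5, a log2 fold change of -0.50 ± 0.14 (limma adjusted p = 0.0163), and Hand2 at 74.3 ± 14.3 and 49.4 ± 3.47, with -0.56 ± 0.16 (limma adjusted p = 0.0196). Both calls were lost with upper-quartile scaling, at limma adjusted p of 0.18 and 0.141. Both were lost with all bulk libraries in 1 fit, 8-week Hand2asD/+ (n = 2) and Hand2asD/D (n = 6) samples included (limma adjusted p = 0.13 and 0.0886). Both were also lost without F/+ E16.5 replicate 2 (limma adjusted p = 0.0871 and 0.0662) and without replicate 3 (0.0648 and 0.0749), and that of Mycn without F/+ E11.5 replicate 1 (limma adjusted p = 0.054). Of the compact-wall regulators 7 of 12 rose and 1 fell, and of 11 trabecular genes 1 rose and 9 fell. With upper-quartile scaling these counts were 9 and 0, and 2 and 7. Of the division genes, 15 of 19 in the G2 and mitosis list and 15 of 20 in the S-phase list fell, and 12 of each with that scaling.

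In the 8-week +/+ cardiomyocytes the markers parted further. Myl2 lay between 11845 and 15819 FPKM with a median of 13626, Myoz2 had a median of 1141 and Tcap of 1306. Kcne1 lay between 0.54 and 3.97 with a median of 2.49, and Hey2 between 3.68 and 5.74 with a median of 3.78. Among these 3 kinds of F/+ or +/+ sample, Kcne1 and Hey2 were highest and Myl2 lowest in E16.5 ventricles, with no overlap between the kinds. Tissue, age and cell preparation differ together across them.

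**Figure D5:**
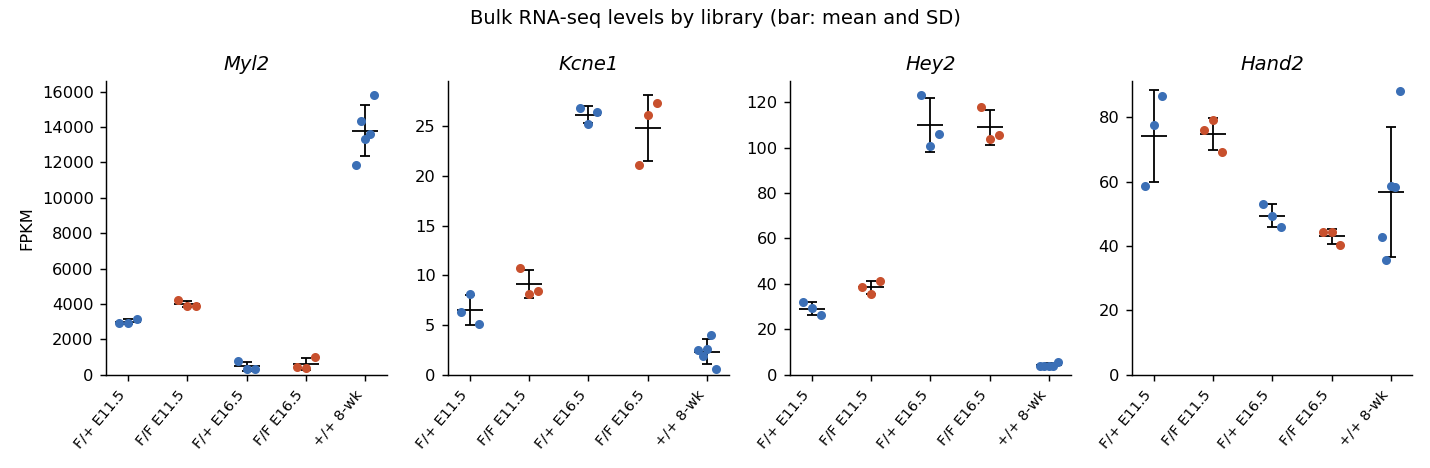
FPKM (y axes, from 0) of Myl2, Kcne1, Hey2 and Hand2 in each library of 5 groups (x axis: F/+ and F/F E11.5 hearts, F/+ and F/F E16.5 ventricles, +/+ 8-week cardiomyocytes). Points are libraries and bars the mean and SD. Myl2 is lowest and Kcne1 and Hey2 highest at E16.5, and at E11.5 the F/F points of Myl2, Kcne1 and Hey2 lie above all F/+ points, although no adjusted p passes.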

How the data were processed

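The single-cell table holds UMI counts per gene and barcode, deposited by the authors after Cell Ranger on mm10, per the submitters' processing notes. Barcode suffixes name the genotype. Per library, the UMIs of all cells in a class were added up and scaled to CPM, with exact intervals. Genes needed 100 UMIs, in each library between classes (fold of 2 in both libraries) and over both libraries between genotypes (fold of 1.5). Doublets were removed only as an alternative. The bulk table holds FPKM values that the authors deposited after TopHat2 2.0.11 on mm9, per the submitters' processing notes. That the unit is FPKM was read from the values and tools. Bulk depth is unknown, and 1 gene with a blank value was dropped. limma 3.58.1 with a trend was run on log2(FPKM + 1) for genes with a mean of 1 or more, with Benjamini-Hochberg adjustment at 0.05, which understates fold changes of low genes. Scripts were tested on simulated data. Nothing in the labels says that bulk replicates are separate animals, so p-values measure the spread between these samples, which may be technical. Named genes are the markers, list members, mostly with enough UMIs, and genes with extreme ratios (15 highest and 10 lowest between classes, 12 and 12 between libraries). Genes named for their ratio needed 20 UMIs in each library, and Xist was left out of them. Members, lists and rules were chosen with earlier results of these data known.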

Additional observations from a re-analysis of the deposited data

Results flagged for a closer look

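Hey2 in the 8-week +/+ cardiomyocytes had 1 library at 5.74 FPKM that stood apart from the other 4, which lay between 3.68 and 3.9 FPKM. Its gap to the nearest of them was 0.893 of the whole range, more than the limit for a group of 5. Such a rule marks about 1 in 20 groups by chance, and 5 genes were looked at.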

How the results depend on the processing

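With 1 pooled library per genotype the single-cell values have no replicate. Of the single-cell counts and shares under the alternatives, 73 stayed near the main value and 16 moved. The gene counts that moved changed by over 1.5 times, and the cell shares and numbers that moved lay outside the main interval. For named genes 820 stayed, 38 moved and none past its fold changed sign. With a minimum of 20 UMIs, 51 genes were higher and 94 lower than in other myocardium, 1615 lower than in all other cells, and 338 higher and 693 lower in F/F. Against all other cells, 654 genes were higher without haemoglobin and mitochondrial genes and 729 with the median ratio set to 1. That median left 116 genes lower in F/F, and thinning to 5000 UMIs left 124. With Nppa under 5 per 10000, 7 genes were higher than in other myocardium. Alternatives chosen after seeing the data were the outflow gate left out (436 and 723 cells, 17.0% and 20.8% of barcodes, with 17 genes higher than in other myocardium) and cells with Xist and no Y-linked UMI (71 genes higher in F/F). The log2 ratio of Hand2 between libraries was 0.83, and ranged from 0.70 without the outflow gate to 0.97 among the cells with Xist. A doublet caller marked 9 and 3 barcodes by itself and so did not work; removing the 53 and 96 barcodes with the highest scores took 4 and 4 compact cells. The cause of these moves was not tested.

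In bulk, all libraries in 1 fit gave 23 genes higher and 65 lower in F/F at E11.5, of which 4 are in the lists (Cacna1g, Cox7a1, Dtl and Ppbp). A pseudocount of 0.1 gave 1 gene higher at E16.5. With single libraries left out, genes higher and lower ranged from 1 to 1 and 0 to 1 at E11.5 (1 lower without F/+ replicate 3). At E16.5 they ranged from 0 to 1 and 0 to 2, with 1 higher without F/F replicate 3, 2 lower without F/+ replicate 2 and 0 lower without F/+ replicate 3 or F/F replicate 1. Between stages they ranged from 1384 to 2214 and from 2617 to 4292. With the replicate block 1 gene was lower at E11.5 and no other count moved by over 1.5 times. Deviations of same-numbered libraries correlated between -0.43 and 0.082, which gives no sign that equal numbers mark pairs. At E16.5 F/F and F/+ libraries with different numbers correlated between -0.41 and 0.46, which the replicate block does not model. Log2 fold changes near 0 turned sign: with upper-quartile scaling Hand2 at E11.5 was -0.048 and Nmt1 -0.072, and with single libraries left out Hand2 at E11.5 ranged from -0.13 to 0.15, Nmt1 from -0.10 to 0.080, Kcne1 at E16.5 from -0.15 to 0.030 and Csrp3 between stages from -0.056 to 0.15.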
